A study of Mus musculus with 8 samples.

Results

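The step from basophil precursors to basophils was followed in the bone marrow of mice labelled as depleted of the transcription factor Nfil3. RNA sequencing libraries of 2 basophil samples were set against those of 2 pre-Baso samples, so the comparison uses 4 of the 8 libraries in the series. The mice are C57BL/6J, their genotype is given as Nfil3-depleted (titled floxed out), and they are called deficient here. The labels do not say which Cre removed the floxed gene or in which cells, and they give no age or sex. The other 4 libraries come from littermate controls labelled wild type, again 2 of pre-Baso and 2 of basophils. Both populations were sorted without lineage markers, CD34 and ckit and with CD200R3, pre-Baso at high and basophils at intermediate binding of MAR1, an antibody to the IgE receptor. The duplicates are called biological, but no label ties a library to an animal, so p-values measure the spread between libraries. Of 55487 annotated genes, 12511 had 1 TPM or more in 2 or more of the 8 libraries and were tested. TPM, the transcript unit of the files, is a gene's share of all transcripts in a library, corrected for length.

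Basophils are rare granulocytes that carry IgE on a high-affinity receptor and release histamine, lipid mediators and cytokines when it is cross-linked. They arise in the bone marrow from granulocyte progenitors, through precursors that still divide, under the control of factors such as Gata2 and Cebpa. Nfil3, also called E4BP4, is a basic leucine zipper factor that responds to interleukin 3, binds the same DNA sites as clock factors such as Dbp, and is needed for several innate lymphoid lineages.

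The genotype and the gate were checked first. Nfil3 (chromosome 13, 52967209 to 52981073, mm10) had 0 and 0.624 TPM in the deficient pre-Baso libraries and 0.853 and 1.32 TPM in the basophil libraries. In controls it had 6.61 and 7.65 TPM in pre-Baso and 20.5 and 22.5 TPM in basophils. Fcer1a, the IgE receptor chain that MAR1 binds, went with the gate: it had 711 and 547 TPM in deficient pre-Baso and 245 and 160 TPM in basophils, and fell by 1.65 ± 0.27 (SE) on the log2 scale (limma adjusted p = 0.0101). Cd200r3, which both gates require, had 276 and 296 TPM against 296 and 362 TPM and was not called. Kit and Cd34, which both gates exclude, stayed at or below 1.88 TPM in the 4 libraries. The deficient libraries held 287.1 to 336.1 assigned megabases, and protein-coding genes took 19.0% to 20.5% of their TPM. Annotated microRNA genes took 58.9% to 61.6% of it but 6.08% to 6.53% of assigned bases. The TPM given here are therefore lower than shares of protein-coding transcripts alone would be.

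From pre-Baso to basophils of deficient mice, 56 of 67 tested G2 and M phase genes and 48 of 52 histone genes fell, as did the protease genes Ctsg, Prss34 and Cpa3. Rises were called in 14 of 26 immediate early genes, 7 of 16 cytokine genes and 16 of 47 receptor genes. Over all genes tested 6.79% were called higher and 4.11% lower. In all 1363 of 12511 genes were called at a limma adjusted p under 0.05, which is 10.9%. Of these 849 rose and 514 fell, and 1127 are protein coding. Of the risen genes 352 and of the fallen genes 312 changed by at least 1 on the log2 scale. In every called gene the 2 basophil libraries lay on 1 side of the 2 pre-Baso libraries, as they did in 36.6% of all tested genes for a higher and 21.7% for a lower level. Changes are differences of log2(TPM + 1), a scale that understates low genes, and their median over all genes tested was 0.10. With each library centred on its median gene that median was -0.02 and the split turned, with 806 genes called higher and 1019 lower, so the number of rises against falls depends on the scaling.

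The calls leaned on single libraries. Leaving out 1 library leaves a single library in its group, and a lost call is not a lost change. Over the 17 alternatives, which include each library left out, the change of Ccnb1 ranged from -2.25 to -1.44 and that of Ctsg from -2.14 to -1.49. Without the first deficient pre-Baso library 19 genes were called, all higher, and every call of a fall ended. Without the second pre-Baso library 592 genes were called, without the first basophil library 228 and without the second 658, of which 396, 151 and 259 were higher. With any 1 control library left out the count was 1161 to 1237. Of 163 called genes named by the rule used here, 152 lost their call without the first pre-Baso library, and each of them kept its direction under all alternatives. The remaining 11 kept direction and call under all 17 alternatives, and all 11 rose.

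**Figure D1:**
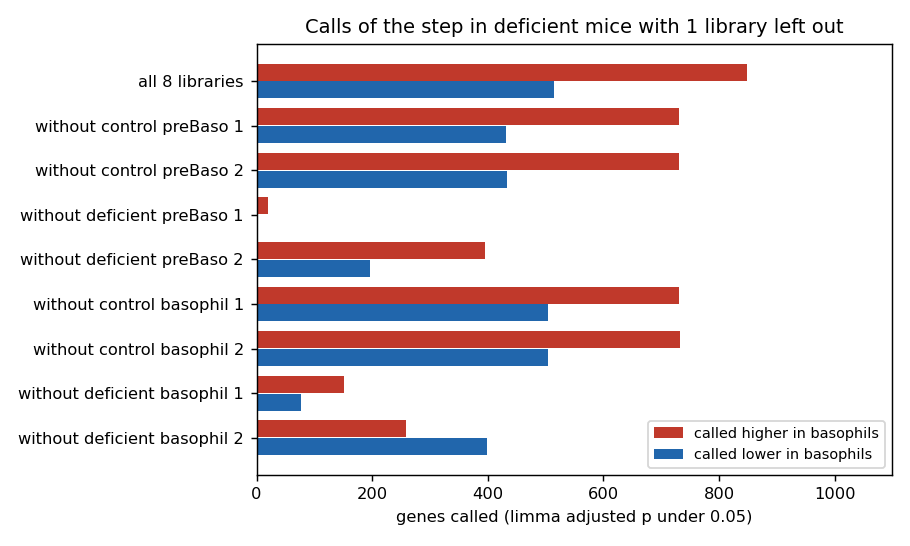
Number of genes called higher (red) or lower (blue) in basophils than in pre-Baso of deficient mice, by limma at an adjusted p under 0.05, with all 8 libraries and with 1 library left out (bars start at 0). The bar without the first deficient pre-Baso library shows 19 genes higher and 0 lower, against 849 and 514 with all libraries.

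The 11 genes were Cd7, Wdr95, Defb40, Ccl6, Adam8, Mapk12, Gstm1, C3ar1, Samhd1, C5ar1 and Ifitm1. Cd7 (chromosome 11, 121036747 to 121039418), which encodes a surface glycoprotein best known from lymphocytes, had 9.28 and 16.7 TPM in pre-Baso and 123 and 118 TPM in basophils. It showed the largest rise among the called genes of the naming rule, 3.17 ± 0.28 (adjusted p = 0.00212). Ccl6, a chemokine gene of myeloid cells, was the most abundant of the 11 next to Ifitm1, with 249 and 290 TPM in pre-Baso against 1433 and 1348 TPM in basophils (2.37 ± 0.18, adjusted p = 0.00146). Ifitm1, an interferon-induced membrane protein gene, had 432 and 495 TPM against 1609 and 1578 TPM (1.78 ± 0.15, adjusted p = 0.00212). In these 3 genes each basophil library held at least 3 times the TPM of either pre-Baso library.

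Defb40 (chromosome 8, 18974940 to 18978256) belongs to the beta-defensins, small antimicrobial peptides. It had 3.70 and 2.23 TPM in pre-Baso and 26.8 and 25.1 TPM in basophils (2.79 ± 0.20, adjusted p = 0.00146). Wdr95, a gene of the WD repeat family, had 0 and 0.386 TPM against 8.13 and 8.09 TPM (2.95 ± 0.22). Mapk12, the stress kinase p38 gamma, had 0.590 and 0.863 TPM against 7.73 and 7.92 TPM (2.36 ± 0.17). These low genes of pre-Baso were closely matched between the 2 basophil libraries.

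Adam8, a membrane metalloprotease gene of migrating leukocytes, had 2.20 and 4.05 TPM in pre-Baso and 20.2 and 19.2 TPM in basophils (2.36 ± 0.25, adjusted p = 0.00469). Gstm1, a glutathione transferase gene, had 18.6 and 18.3 TPM against 99.5 and 91.9 TPM and the smallest adjusted p of all genes (2.31 ± 0.13, adjusted p = 0.000854). Samhd1, which hydrolyses deoxynucleotides, had 7.44 and 7.66 TPM against 45.6 and 34.0 TPM (2.24 ± 0.18). Lack of overlap between the groups was part of the rule that picked these genes. The receptors C3ar1 and C5ar1 are described with their family below.

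Of the 12 genes with the largest rise, 3 lost their call in some alternative. Zfp36, which encodes a protein that destabilises messenger RNA of cytokines, had 2.58 and 3.79 TPM against 18.1 and 20.2 TPM (2.28 ± 0.29) and lost its call only without the first pre-Baso library. Nxpe4 had 0.615 and 0.959 TPM against 8.81 and 6.30 TPM (2.25 ± 0.25). Samd13 had 4.30 and 4.47 TPM against 24.6 and 27.0 TPM (2.32 ± 0.43) and shares 1235 exon bases with 4930503B20Rik on the same strand, so its reads are not assigned with certainty.

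**Figure D2:**
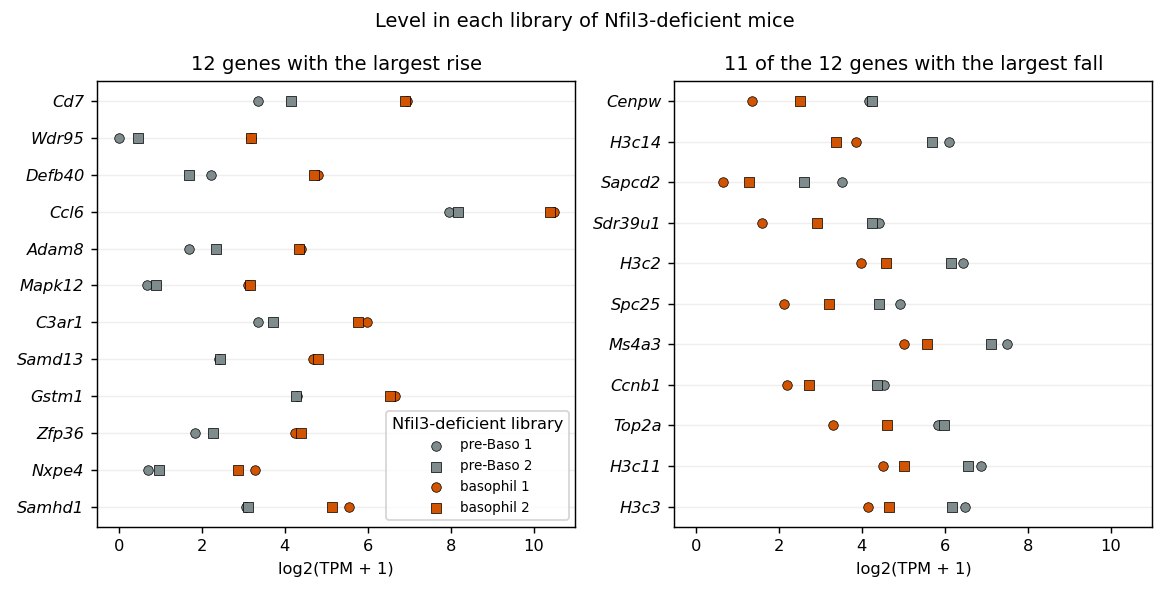
Level as log2(TPM + 1) in each of the 4 deficient libraries for the 12 named genes with the largest rise (left) and 11 of the 12 with the largest fall (right); grey points are pre-Baso, orange points are basophils, circles are the first and squares the second library. Grey and orange points do not overlap for any gene, which the naming rule required. In the right panel the first basophil library lies below the second in each gene but H3c14.

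Genes of cell division fell in the largest numbers. Of 67 tested genes that act in the G2 and M phases, such as cyclins, mitotic kinases and kinetochore parts, 56 fell and 0 rose, against 4.11% of all genes called lower. Their median change was -1.34, beside 0.10 over all genes. In bulk RNA fewer dividing cells and less RNA per dividing cell cannot be told apart. The count of 56 was 0 without the first pre-Baso library, 21 without the second, 11 without the first basophil library and 53 without the second, while the median ranged from -1.66 to -1.02.

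Ccnb1, the cyclin that drives entry into mitosis with Cdk1, had 22.3 and 19.5 TPM in pre-Baso and 3.60 and 5.64 TPM in basophils (-1.98 ± 0.24, adjusted p = 0.00472). Ccnb2, a second B-type cyclin, had 42.6 and 40.1 TPM against 9.76 and 15.0 TPM (-1.69 ± 0.24). Top2a, the topoisomerase that untangles replicated chromosomes, had 56.4 and 62.4 TPM against 8.93 and 23.4 TPM (-1.95 ± 0.43, adjusted p = 0.0284). For each of them the higher basophil value was the second library's. The kinetochore gene Cenpw had 17.2 and 18.0 TPM against 1.56 and 4.69 TPM (-2.28 ± 0.40), and Spc25 had 29.1 and 20.4 TPM against 3.35 and 8.19 TPM (-2.0 ± 0.34). Sapcd2, which acts on the orientation of the spindle, had 10.5 and 5.10 TPM against 0.573 and 1.42 TPM (-2.1 ± 0.34). Called genes all lacked overlap, so the lower pre-Baso library stayed above the higher basophil library in these genes too.

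All 67 genes had a negative change, and 11 of them did not pass the test. Pttg1, which encodes securin, the inhibitor of separase, had 11.7 and 9.06 TPM in pre-Baso and 8.13 and 10.5 TPM in basophils, and the groups overlapped. Smc4, of the condensin complex, had 15.7 and 21.3 TPM against 7.51 and 11.3 TPM with an adjusted p of 0.0539. Bub3, of the spindle checkpoint, had 26.5 and 32.1 TPM against 20.2 and 16.4 TPM with an adjusted p of 0.0588.

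Promoters of G2 and M genes are known for a cell cycle homology region with the letters TTTGAA, often near CCAAT boxes. RefSeq promoters (GRCm38.p6) were matched by symbol for 7565 of the 12505 symbols tested, and the 250 bases before each start were searched on both strands, as TTTGAA or TTCAAA and as CCAAT or ATTGG. The first pair of letters stood before 17 of 45 matched G2 and M genes that fell (37.8%), 25.8% of all genes that fell, 11.2% of those that rose and 13.4% of all matched tested genes. CCAAT or ATTGG stood before 32 of 45 (71.1%), 60.5%, 40% and 40.8%. Over all 55 matched G2 and M genes tested the shares were 36.4% and 72.7%, and among the 32851 promoters of that RefSeq set they were 16% and 33.8%. Of 19 matched S phase genes that fell, a list described below, 3 held TTTGAA or TTCAAA (15.8%) and 13 CCAAT or ATTGG (68.4%). The CCAAT share was thus not particular to G2 and M genes. These letters are a description of the windows and not of bound factors.

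The 120 bases before the start are printed for 4 genes, to show how these letters lie in genes that fell. Of 11 promoters of fallen G2 and M genes found to hold both motifs in this window, 4 have at most 10 bases inside an annotated exon or gene. All 4 of these are printed. Capitals mark these letters, and each sequence runs 5′ to 3′ on the gene's strand. Top2a is at chr11:99024190-99024309 (minus strand), Cdc20, an activator of the anaphase-promoting complex, at chr4:118437344-118437463 (minus strand), Kif11, a spindle motor, at chr19:37376262-37376381 (plus strand) and Ckap2, a spindle protein, at chr8:22185820-22185939 (minus strand).
Top2a: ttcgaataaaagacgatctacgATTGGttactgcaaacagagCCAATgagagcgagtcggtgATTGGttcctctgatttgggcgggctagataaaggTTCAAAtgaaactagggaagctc
Cdc20: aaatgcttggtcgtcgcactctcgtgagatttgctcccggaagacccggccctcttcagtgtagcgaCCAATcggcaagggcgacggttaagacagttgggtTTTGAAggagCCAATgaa
Kif11: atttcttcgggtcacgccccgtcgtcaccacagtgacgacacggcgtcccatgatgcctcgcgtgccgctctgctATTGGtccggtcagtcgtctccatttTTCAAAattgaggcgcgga
Ckap2: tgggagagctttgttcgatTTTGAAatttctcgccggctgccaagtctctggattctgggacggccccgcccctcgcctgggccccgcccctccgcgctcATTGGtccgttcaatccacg

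The first letter of the TTTGAA or TTCAAA run lies 23 bases before the start in Top2a, 18 in Cdc20 and 19 in Kif11, and farther upstream in Ckap2. Top2a holds 3 CCAAT or ATTGG runs, Cdc20 2 and the other genes 1 each. Cdc20 had 37.3 and 33.0 TPM in pre-Baso and 7.47 and 12.9 TPM in basophils and fell by 1.73 on the log2 scale. Kif11 had 7.76 and 8.48 TPM against 1.21 and 2.77 TPM and fell by 1.66, and Ckap2 had 5.59 and 8.96 TPM against 1.05 and 2.24 TPM and fell by 1.65.

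Of 59 tested genes of S phase, which copy DNA, 21 fell (35.6%, against 4.11% of all genes) and 0 rose. Their median was -0.84, and after centring on the median gene 37 fell. Asf1b, a histone chaperone, had 26.1 and 20.1 TPM in pre-Baso and 4.38 and 7.34 TPM in basophils (-1.84 ± 0.24, adjusted p = 0.00541). Pcna, the sliding clamp of DNA polymerases, had 40.9 and 39.5 TPM against 13.8 and 18.9 TPM (-1.27 ± 0.20). Dut, which keeps uracil out of DNA, had 44.3 and 40.5 TPM against 11.8 and 16.8 TPM (-1.52 ± 0.23). Mcm6, of the replicative helicase, had 32.9 and 31.0 TPM against 13.9 and 23.7 TPM and was not called (adjusted p = 0.0774). The count of 21 was 0 without the first pre-Baso library, 6 without the second, 1 without the first basophil library and 21 without the second. Gins2 and Ccne2, which also fell, share exon bases with Gse1 and Ints8 on the other strand.

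Replication-dependent histone genes, which are transcribed in S phase, fell as a group. Falls were called in 48 of 52 tested genes (92.3%, against 4.11% of all genes), rises in 0, and the median was -1.60. H3c14 had 67.4 and 50.5 TPM in pre-Baso and 13.5 and 9.46 TPM in basophils (-2.27 ± 0.22, adjusted p = 0.00401), but it shares 1825 exon bases with Gm20634. H3c2 had 85.6 and 70.4 TPM against 14.8 and 23.1 TPM (-2.01 ± 0.23). H3c11 had 115 and 93.2 TPM against 21.8 and 31.5 TPM (-1.94 ± 0.25), H3c3 had 89.2 and 71.0 TPM against 16.6 and 24.2 TPM (-1.94 ± 0.25), and H4c2 had 40.6 and 38.3 TPM against 10.8 and 13.6 TPM (-1.63 ± 0.18). Many of these genes are near-identical copies, so the assignment of reads among them is uncertain. The count of 48 was 0 without the first pre-Baso library and 33 to 47 without any 1 of the other 3 deficient libraries.

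Genes of the G1 phase went both ways. Btg1 and Btg2, antiproliferative factors, rose from 8.34 and 10.1 to 24.3 and 25.2 TPM (1.34 ± 0.16) and from 4.2 and 5.64 to 15.8 and 14.8 TPM (1.47 ± 0.18). The cyclin gene Ccnd2 rose from 5.14 and 6.72 to 15.0 and 18.0 TPM, and Myc from 5.39 and 5.99 to 10.8 and 15.6 TPM. Cdkn2c, an inhibitor of Cdk4 and Cdk6, fell from 6.79 and 5.96 to 2.06 and 2.75 TPM (-1.12 ± 0.22). Cdk4 fell by 0.72 on the log2 scale and shares 641 exon bases with Tspan31. Of 20 tested genes these 4 rose (20%, against 6.79% of all genes) and 2 fell (10%, against 4.11%). Without the first pre-Baso library 0 were called, and without the second pre-Baso or the first basophil library 3 and 4 of the rises and 0 of the falls were.

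**Figure D3:**
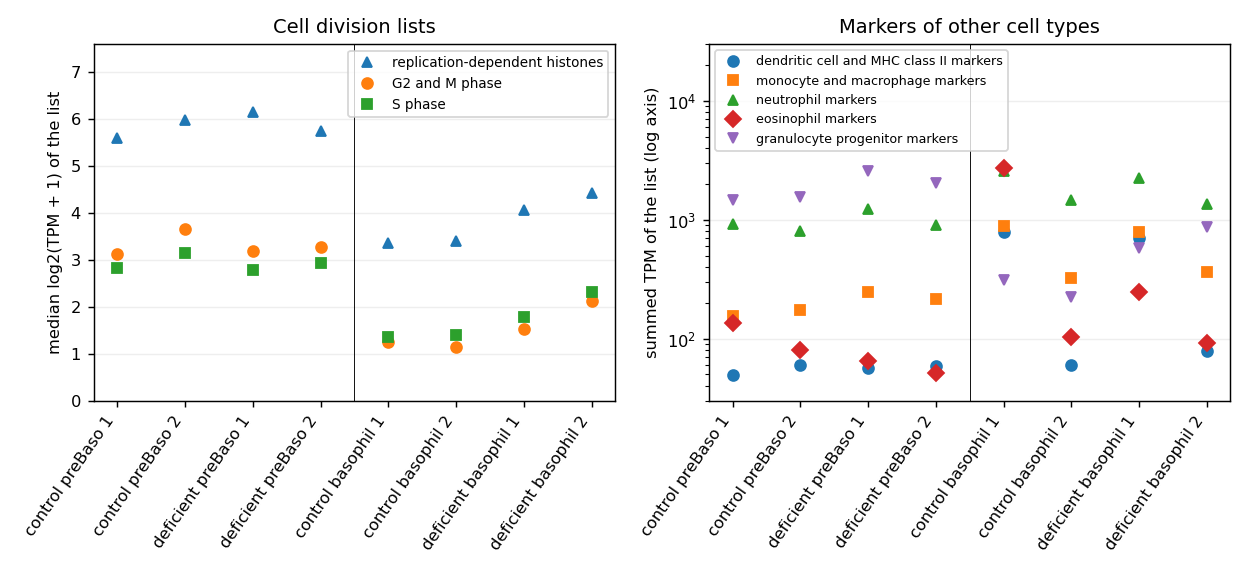
Left, median log2(TPM + 1) of the histone, G2 and M phase and S phase lists in each of the 8 libraries; right, summed TPM of markers of other cell types on a log axis. G2 and M genes stood at 1.53 and 2.12 in deficient basophils against 3.18 and 3.28 in deficient pre-Baso and 1.25 and 1.15 in control basophils, and the MHC class II sum of the first deficient basophil library stood at 700.4 TPM.

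Markers of granulocyte progenitors fell beside the cell division genes. Of 10 tested genes 5 fell (50%, against 4.11% of all genes) and 0 rose. The summed level of the markers was 2544 and 2024 TPM in pre-Baso and 575 and 875 TPM in basophils. Ctsg (chromosome 14, 56099881 to 56102574), which encodes cathepsin G, had 1857 and 1486 TPM against 375 and 592 TPM (-1.82 ± 0.21, adjusted p = 0.00470). It made up most of each sum, and in controls it had 745 and 841 TPM against 85.1 and 90.4 TPM. Ms4a3, a marker of the granulocyte and monocyte progenitor path, had 180 and 137 TPM against 31.6 and 46.9 TPM (-2.0 ± 0.26). Mpo, the myeloperoxidase gene, had 204 and 172 TPM against 50.9 and 91.1 TPM (-1.44 ± 0.31, adjusted p = 0.026). Nkg7 and Calr also fell, by 1.22 and 1.15 on the log2 scale, while Elane had 20.3 and 12.3 TPM against 16.4 and 14.2 TPM and Prtn3 9.38 and 8.86 TPM against 10.6 and 7.06 TPM. The neutrophil elastase and proteinase 3 genes thus overlapped between the groups. None of these 5 calls was left without the first pre-Baso library, and without the second pre-Baso, first basophil or second basophil library 3, 2 and 4 were.

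More granule genes were called lower than higher. Prss34, a serine protease of basophils, was the most abundant named gene, with 22153 and 18974 TPM in pre-Baso and 5643 and 9494 TPM in basophils (-1.49 ± 0.29, adjusted p = 0.0187). Cpa3, the carboxypeptidase of mast cells and basophils, had 348 and 328 TPM against 103 and 162 TPM (-1.38 ± 0.20, adjusted p = 0.00785). Hdc, which makes histamine, went the other way, with 72.3 and 90.9 TPM against 135 and 144 TPM (0.78 ± 0.18, adjusted p = 0.0312). Its transporter gene Slc18a2 had 11.5 and 11.9 TPM against 15.5 and 16.7 TPM and Srgn, the serglycin core of granules, 431 and 379 TPM against 287 and 327 TPM, and neither was called. In total 3 of 13 tested genes of this list fell, the third being Ctsg, which is 23.1% against 4.11% of all genes. With 1 rise the share called higher (7.69%) is near that of all genes (6.79%). None of these calls held without the first pre-Baso library, and that of Hdc ended without any 1 of the 4 deficient libraries.

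Mcpt8, the protease that marks mouse basophils, was low in deficient mice in both populations. It had 4.08 and 6.04 TPM in deficient pre-Baso and 2.73 and 1.98 TPM in basophils (-0.84 ± 0.24, adjusted p = 0.0583), against 6244 and 7888 TPM and 969 and 1400 TPM in controls. It lies on chromosome 14 from 56082166 to 56085273, near Ctsg. The labels do not say whether these mice carry an altered Mcpt8 allele, such as a Cre placed in the gene, so such an allele and the loss of Nfil3 cannot be told apart for Mcpt8 and its neighbours. Sdr39u1 (chromosome 14, 55897283 to 55900293), a short-chain dehydrogenase gene, fell from 20.5 and 18.0 to 2.0 and 6.60 TPM in deficient mice (-2.08 ± 0.38, adjusted p = 0.0152). Its neighbour Khnyn, named after its values were seen, rose from 1.49 and 1.40 to 3.52 and 5.03 TPM (1.10, adjusted p = 0.0128). The pair share 730 exon bases on opposite strands, and without strand information their reads cannot be told apart. In controls Sdr39u1 had 8.31 and 7.72 TPM against 14.6 and 10.2 TPM.

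Of 31 tested basophil identity genes 9 rose (29.0%, against 6.79% of all genes) and 5 fell (16.1%, against 4.11%), with a median of 0.33. The fallen ones were Ms4a3, Fcer1a, Prss34, Cpa3 and Clec12a, an inhibitory lectin receptor that had 58.5 and 42.4 TPM in pre-Baso and 16.9 and 20.2 TPM in basophils (-1.38 ± 0.23). Besides Cd7, Ifitm1 and Hdc, the risen ones were Csf2rb2, Csf2rb, Osm, Il18r1, Ccr3 and Cyp11a1. Il18r1, the interleukin 18 receptor, had 22.0 and 23.1 TPM against 41.9 and 55.1 TPM, and the steroid enzyme gene Cyp11a1 had 57.3 and 56.1 TPM against 94.4 and 96.6 TPM. Gata2, the factor that specifies basophils and mast cells, had 169 and 233 TPM against 224 and 334 TPM, and the groups overlapped. The receptor gamma chain Fcer1g had 1088 and 974 TPM against 1198 and 1129 TPM and was not called. Without the first pre-Baso library 2 of the 9 rises and 0 of the 5 falls were called, and without any 1 of the other 3 deficient libraries 5 or 6 rises and 3 to 5 falls.

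Of 43 tested genes of IgE receptor signalling 12 rose (27.9%, against 6.79% of all genes) and 1, Fcer1a, fell (2.33%, against 4.11%). Their median was 0.46. Among activating kinases Lyn had 7.21 and 8.20 TPM in pre-Baso and 15.8 and 13.1 TPM in basophils (0.82 ± 0.21), and Syk had 6.50 and 6.21 TPM against 11.3 and 11.5 TPM (0.75 ± 0.17). Btk had 7.47 and 10.1 TPM against 18.0 and 19.1 TPM (1.01 ± 0.18). Pik3cd, the leukocyte PI3 kinase subunit, had 7.49 and 8.64 TPM against 17.2 and 17.3 TPM (1.01 ± 0.18). Inhibitory receptors rose too: Pirb had 1.87 and 2.27 TPM against 10.5 and 6.47 TPM (1.6 ± 0.29), Lilrb4a 75.9 and 83.6 TPM against 176 and 191 TPM (1.19 ± 0.20) and Cd300a 7.22 and 6.94 TPM against 14.8 in both libraries (0.97 ± 0.19). The adaptor genes split, with Lat at 50.2 and 43.9 TPM against 44.1 and 45.2 TPM and Lat2, which shares exon bases with Rfc2, up from 63.7 and 57.9 to 96.7 and 111 TPM. Without the first pre-Baso or the first basophil library 0 of the 12 rises were called, without the second pre-Baso library 5 and without the second basophil library 1.

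Genes of vesicle fusion rose in 4 of 25 cases and fell in 0, against 6.79% of all genes called higher. Sytl3, a Rab27 effector, had 11.2 and 13.6 TPM in pre-Baso and 69.5 and 37.5 TPM in basophils (1.96 ± 0.29). Stxbp2 and the syntaxin gene Stx4a rose by 0.88 ± 0.14 and 0.92 ± 0.16. The lysosomal trafficking gene Lyst rose by 0.82 ± 0.20, and Vamp8 had 154 and 134 TPM against 142 and 134 TPM. Of these 4 rises 0, 3, 1 and 1 were called without the first and second pre-Baso and the first and second basophil library.

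Receptors for chemoattractants and growth factors rose in 16 of 47 tested cases (34.0%, against 6.79% of all genes) and fell in 0. Their median was 0.60. C3ar1, the receptor for the complement fragment C3a, had 9.25 and 12.1 TPM in pre-Baso and 62.0 and 53.1 TPM in basophils (2.33 ± 0.18, adjusted p = 0.00163). C5ar1, a receptor for C5a, had 6.23 and 7.72 TPM against 28.9 and 32.2 TPM (1.99 ± 0.18, adjusted p = 0.0023), and the second C5a receptor gene C5ar2 had 1.76 and 2.18 TPM against 5.85 and 6.54 TPM (1.28 ± 0.18). The 3 complement receptor genes were all called higher, but C5ar2 shares 127 exon bases with the small RNA gene Gm26473 on the same strand. Il7r had 3.15 and 3.83 TPM against 14.5 and 11.4 TPM (1.63 ± 0.20), and Il10ra had 1.20 and 1.52 TPM against 7.48 and 4.93 TPM (1.59 ± 0.21).

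The chemokine receptors Cxcr2, Ccr2 and Ccr3 rose. Cxcr2, a receptor for neutrophil chemokines, had 7.31 and 13 TPM against 36.5 and 42.4 TPM (1.90 ± 0.27), Ccr2, the receptor for Ccl2, 8.73 and 7.81 TPM against 23.3 and 21.9 TPM (1.35 ± 0.16), and the eotaxin receptor Ccr3 0.714 and 1.02 TPM against 2.86 and 2.80 TPM (1.04 ± 0.18). Of the interleukin 3 receptor, the shared chain Csf2rb had 60.7 and 86.5 TPM against 188 and 204 TPM (1.42 ± 0.19) and Csf2rb2 16.4 and 22.3 TPM against 61.2 and 68.8 TPM (1.71 ± 0.18). These 2 chains are close paralogs, and reads may be split between them. The ligand-binding chain Il3ra had 71.6 and 69.9 TPM against 57.2 in both libraries and was not called. Cxcr4, the receptor that retains cells in the marrow, had 47.2 and 45.8 TPM against 52.3 and 34.8 TPM. Of the 16 rises 2, C3ar1 and C5ar1, were called without the first pre-Baso library and 10 without the first basophil library, and the median without the latter was 0.65.

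Cytokine and chemokine genes rose in 7 of 16 tested cases (43.75%, against 6.79% of all genes) and fell in 0. Their median was 0.81. Besides Ccl6, Ccl9 had 54.1 and 63.5 TPM in pre-Baso and 183 and 181 TPM in basophils (1.62 ± 0.17). Ccl3 had 110 and 150 TPM against 279 and 299 TPM (1.16 ± 0.22), and Ccl4 had 24.7 and 33.6 TPM against 97.3 in both libraries (1.72 ± 0.23). Csf1, the macrophage growth factor, had 17.6 and 24.3 TPM against 44.3 and 53.0 TPM (1.19 ± 0.19). Il4, the type 2 cytokine for which basophils are known, had 41.9 and 41.5 TPM against 65.4 and 78.7 TPM (0.77 ± 0.15, adjusted p = 0.0186). Osm rose by 1.44 ± 0.29. Il6, at 41.6 and 27.1 TPM against 44.4 and 47.8 TPM, was not called, nor was Ccl5, at 0 and 2.57 TPM against 39.9 and 5.14 TPM. Of the 7 rises 1, Ccl6, was called without the first pre-Baso library, 5 without the second, 5 without the first basophil library and 4 without the second.

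Of 26 tested immediate early genes and feedback regulators 14 rose (53.85%, against 6.79% of all genes) and 0 fell, and the median was 0.83. Junb, a subunit of AP-1, had 11.4 and 9.6 TPM in pre-Baso and 38.3 and 34.4 TPM in basophils (1.70 ± 0.24, adjusted p = 0.00743). Zfp36l2, of the family of Zfp36, had 16.7 and 15.1 TPM against 55.3 and 43.3 TPM (1.56 ± 0.19). Rgs2, which shortens G protein signals, had 16.3 and 22.5 TPM against 52.3 and 44.9 TPM (1.30 ± 0.20). Jund and Fosl2 rose by 1.22 ± 0.21 and 1.15 ± 0.19, whereas Jun had 1.79 and 4.58 TPM against 4.78 and 6.35 TPM and was not called. Of these rises 0, 6, 3 and 6 were called without the first and second pre-Baso and the first and second basophil library, and the median lay between 0.83 and 0.85 in each case.

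Transcription factors of blood lineages rose in 15 of 44 tested cases (34.1%, against 6.79% of all genes) and fell in 0. Their median was 0.61. Runx2 had 1.97 and 3.82 TPM in pre-Baso and 9.85 and 11.8 TPM in basophils (1.64 ± 0.25), with 519 exon bases shared with Runx2os1 on the other strand. Hhex, a homeobox factor, had 7.68 and 7.77 TPM against 20.8 and 24.7 TPM (1.44 ± 0.16, adjusted p = 0.00470). Spi1, which encodes PU.1, had 48.1 in both pre-Baso libraries against 93.0 and 93.6 TPM (0.94 ± 0.13). Id2, an inhibitor of E proteins, had 7.78 and 12.1 TPM against 24.7 and 28.9 TPM (1.37 ± 0.25). Cebpa, needed for basophil formation, had 80.4 and 82.7 TPM against 78.3 and 106 TPM, and the groups overlapped. Bhlhe40 rose by 0.91 ± 0.19 and was the 1 called gene of 11 tested clock genes. That share, 9.09%, is near the 6.79% of all genes called higher. Dbp, which binds the sites that Nfil3 binds, had 2.23 and 3.59 TPM against 3.0 and 5.08 TPM. Without the first pre-Baso library 0 of the 15 factors were called, and without the other deficient libraries 4 to 10.

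The letters of the Nfil3 site were also looked for. TTACATAA, TTATGTAA or TTACGTAA stood in the 250 bases before the start of 5 of 605 matched genes that rose (0.8%), 4 of 329 that fell (1.2%) and 57 of 7565 matched tested genes (0.8%). The shares for risen and for all tested genes were the same when rounded.

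Adhesion genes rose in 10 of 33 cases, against 6.79% of all genes, and fell in 0, with a median of 0.51. Itgam, the alpha chain of Mac-1, had 2.68 and 3.51 TPM in pre-Baso and 14.8 and 12.9 TPM in basophils (1.86 ± 0.31) and shares 210 exon bases with Gm49368 on the same strand. Itgb3 had 1.29 and 1.40 TPM against 5.21 and 4.91 TPM (1.37 ± 0.17), and its partner Itga2b had 59.0 and 67.8 TPM against 71.3 and 78.5 TPM without a call. Selplg, the ligand of selectins, rose by 0.86 ± 0.16. Of the 10 rises 0, 6, 1 and 3 were called without the first and second pre-Baso and the first and second basophil library.

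Genes of energy and protein turnover changed in smaller numbers. Aldoa, a glycolytic enzyme, had 202 and 211 TPM in pre-Baso and 475 in both basophil libraries (1.20 ± 0.13, adjusted p = 0.00469). The hexokinase Hk3, the glucose transporter Slc2a3, the pentose phosphate enzyme Taldo1 and the lactate transporter Slc16a3 rose by 0.79, 0.97, 0.52 and 1.45. Of 36 tested genes of this list 5 rose (13.9%, against 6.79% of all genes) and 0 fell. Of the 5 rises 0, 1, 1 and 3 were called without the first and second pre-Baso and the first and second basophil library. Ldha, at 322 and 260 TPM against 216 and 242 TPM, was not called. Of 77 nuclear genes of the respiratory chain 9 fell (11.7%, against 4.11% of all genes) and 0 rose, with a median of -0.39. Ndufa4 had 334 and 263 TPM against 144 and 165 TPM (-0.94 ± 0.17), and Ndufa1 had 314 and 291 TPM against 163 and 177 TPM (-0.82 ± 0.15). Of the 13 mitochondrially encoded genes 0 were called. The 9 falls were 24 after rescaling to protein-coding genes and 31 after centring, 0 without the first pre-Baso or the first basophil library, and 2 and 4 without the second ones.

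Of 35 genes of the unfolded protein response and the secretory path 7 fell and 1 rose. These are 20% against 4.11% of all genes lower and 2.86% against 6.79% higher. After centring 12 fell. The chaperone cofactor Sdf2l1 had 69.9 and 64.1 TPM in pre-Baso and 18.8 and 27.7 TPM in basophils (-1.51 ± 0.26), and Pdia6, a disulfide isomerase, 47.9 and 50.7 TPM against 18.9 and 27.7 TPM (-1.07 ± 0.22). Ssr4, Manf, P4hb, Sec61b and Calr also fell. Ppp1r15a, which restarts translation after stress, rose from 0.841 and 0.833 to 2.97 and 3.38 TPM. Ribosomal protein genes had a median of 0.06 over 80 tested, of which Rps23, Rps9 and Rplp1 rose and Rpl22l1 and Rpl29 fell. These shares lie under those of all genes (6.79% higher, 4.11% lower), and the 3 rises and 2 falls were 8 and 4 after rescaling to protein-coding genes and 1 and 5 after centring. Of 48 ribosome biogenesis genes 1, Nop10, fell (2.08%, against 4.11% of all genes). All calls of these 3 lists ended without the first pre-Baso library, and the 7 falls were 2, 0 and 3 without the second pre-Baso, first basophil and second basophil library.

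Lysosomal genes rose in 7 of 51 cases, against 6.79% of all genes, among them the protease gene Ctsd, at 113 and 109 TPM in pre-Baso and 218 and 211 TPM in basophils (0.94 ± 0.12). The proton pump genes Atp6v1b2 and Atp6v0b rose by 0.96 and 0.81. Of 14 tested genes of lipid mediator synthesis 3 rose (21.4%) and 0 fell. The risen genes were Alox15, Mboat7 and Abcc1, by 0.77, 0.88 and 0.75, while Alox5, at 68.8 and 64.0 TPM against 53.8 and 62.7 TPM, was not called. Of 24 genes of sterol and fatty acid synthesis the desaturases Fads1 and Fads2 rose, a share near that of all genes (6.79%). Interferon response genes rose in 6 of 32 cases (18.75%, against 6.79% of all genes): Ifitm1, Rtp4, Isg15, Ifit3, Ifitm3 and Isg20. Of 27 tested survival genes 4 rose (14.8%) and 1 fell, and the share of falls (3.7%) is near that of all genes (4.11%). Pim1 had 11.7 and 16 TPM against 45.3 and 43.0 TPM (1.62 ± 0.19), and Birc3, Fas and Mcl1 rose by 1.42, 0.99 and 0.71. Bcl2 fell from 3.65 and 4.36 to 1.47 and 1.96 TPM (-0.89 ± 0.19). Without the first pre-Baso library Ifitm1 was the 1 gene of these lists still called. Without the first basophil library 2 lysosomal, 0 lipid mediator, 0 sterol, 1 interferon and 1 survival gene were called higher, and the call of Bcl2 ended without any 1 deficient library.

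**Figure D4:**
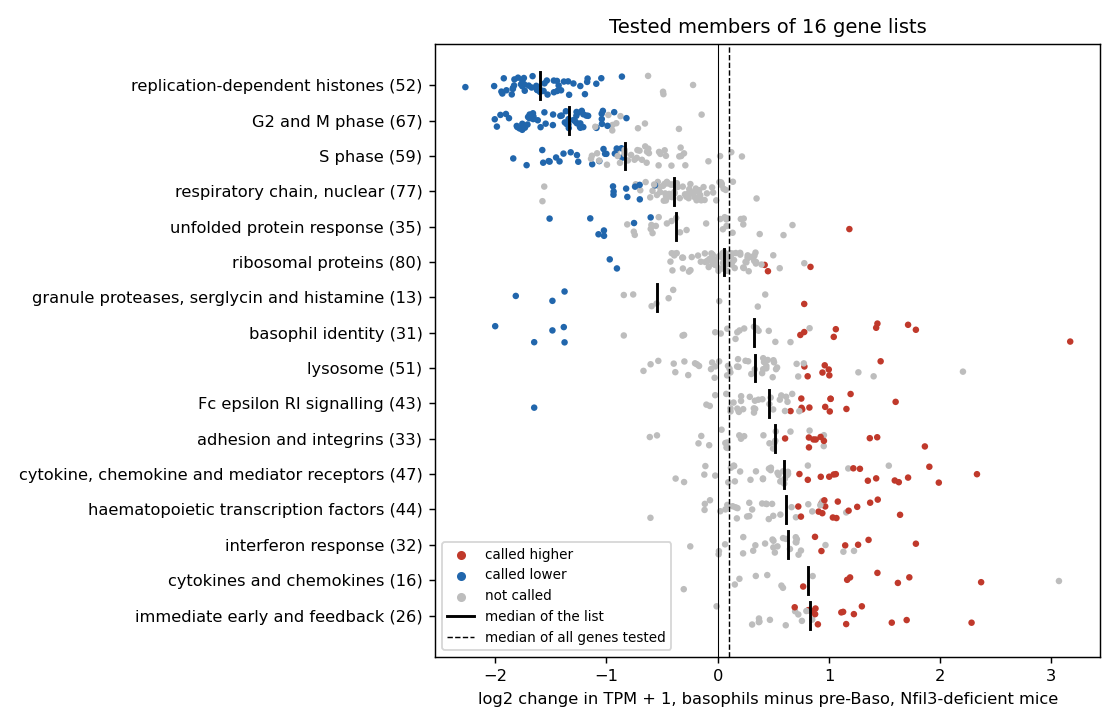
Log2 change from pre-Baso to basophils in deficient mice of every tested member of 16 gene lists (number tested in brackets), red where called higher, blue where called lower and grey where not called; black bars are list medians and the dashed line is the median of all genes, 0.10. The histone, G2 and M and S phase lists lie on the negative side, with medians of -1.60, -1.34 and -0.84, and the immediate early list has a median of 0.83.

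Markers of other cell types moved between single libraries as well as between populations. Summed MHC class II and dendritic cell markers (6 of 10 tested, 0 called) had 56.2 and 58.9 TPM in pre-Baso, 700.4 TPM in the first basophil library and 79.2 TPM in the second. Summed monocyte and macrophage markers (9 of 14 tested) had 249 and 217 TPM against 795 and 367 TPM, and Ccr2 was the 1 called gene. Summed neutrophil markers (12 of 12 tested) had 1241 and 895 TPM against 2258 and 1365 TPM, with Cxcr2, Mmp9, Retnlg and Mmp8 called higher and S100a8 at 420 and 308 TPM against 740 and 444 TPM. Summed eosinophil markers (9 of 10 tested) had 65.3 and 51.8 TPM against 249 and 91.9 TPM. Among them Siglecf, Ccr3 and Alox15 rose, and Prg2 had 29.3 and 12.5 TPM against 152 and 18.9 TPM. The neutrophil and the eosinophil rises are each 33.3% of the tested markers, against 6.79% of all genes. Of these 4 neutrophil and 3 eosinophil rises 1 and 0 were called without the first basophil library, and 0 without the first pre-Baso library. The first basophil library stood above the second in all 4 sums, and the second stood above both pre-Baso libraries in each. Without the first basophil library the receptor, cytokine and immediate early medians were 0.65, 0.86 and 0.85, a fit that still holds the second. Cxcr2, Ccr2 and Ccr3 are members of the receptor list too. The part of such cells in the rises described here was not tested.

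Other lineages were low or uncalled, apart from Nkg7 and Itgb3, which are also natural killer cell and platelet markers. Of 5 tested B cell markers and 7 tested erythroid markers 0 were called, Igkc had 9.89 and 11.3 TPM against 21.8 and 5.70 TPM, and Hba-a1 had 7.39 and 26.4 TPM against 32.1 and 29.3 TPM. The mast cell proteases Mcpt4, Tpsab1, Mcpt1 and Mcpt2 and the receptor gene Mrgprb2 were at 0 in the 4 deficient libraries, and Cma1 had 2.41 and 2.0 TPM against 1.17 and 0.646 TPM. The T cell genes Cd3d and Trac were at 0 in the same libraries. Platelet marker Pf4 had 0 in both pre-Baso libraries and 2.80 and 9.78 TPM in basophils.

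The same step in controls served as the comparison. There 2832 genes were called (22.6%), 1576 higher (12.6%) and 1256 lower (10%). Of the 849 genes that rose in deficient mice 714 (84.1%) also rose in controls, which is 45.3% of the control rises, and of the 514 that fell 461 (89.7%) also fell, which is 36.7% of the control falls. No gene was called in opposite directions. Both steps were tested with the same estimate of spread for each gene, so these overlaps are not between independent tests. Across the 12511 genes, which are not independent replicates, the changes had a Pearson r of 0.78, and 1338 of the 1363 called genes had the same sign in controls.

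Whether the step differed between genotypes was tested directly, as the change in deficient minus the change in control mice. By limma 0 of 12511 genes were called (0%), 689 had an unadjusted p under 0.05, and the smallest adjusted p was 0.536. No gene can therefore be named as changing in deficient mice alone at this replication. Under the 16 alternatives that hold control libraries 0 to 2 genes were called. They were Defb40 and Gm8909 with a pseudocount of 0.1 or protein-coding genes only, Gm24865 without the second control pre-Baso library, Gm20492 and Igha without the second control basophil library and Rps18-ps6 without the second deficient basophil library. All but Defb40 were named after their values were seen.

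The values behind the smaller p-values are given side by side. Defb40 was at 0 in both control pre-Baso libraries and at 27.7 and 24.7 TPM in control basophils, close to the 26.8 and 25.1 TPM of deficient basophils, and the difference was -1.97 ± 0.29 (adjusted p = 0.536). Cell division genes had smaller changes in deficient mice by value: the G2 and M median was -1.34 against -2.22 in controls. The difference was positive in 65 of 67 genes, with an unadjusted limma p under 0.05 in 32. Over all genes tested it was positive in 6670 of 12511, with such a p in 689. The 67 genes are not independent replicates. Histone genes had medians of -1.60 and -2.14, and S phase genes -0.84 and -1.43. Birc5, the survivin gene, named after its values were seen, had 82.7 and 63.4 TPM in deficient pre-Baso and 15.1 and 28.4 TPM in basophils, a change of -1.76 against -4.47 in controls (difference adjusted p = 0.536).

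Among the leading rises none passed the test of the difference. Cd7 rose by 3.17 against 4.12 in controls, where basophils reached 245 and 236 TPM. Samhd1 rose by 2.24 against 3.54 and Ccl6 by 2.37 against 3.28, while Csf2rb rose by 1.42 against 1.43 and Aldoa by 1.20 against 1.23. Sdr39u1, described above, was 1 of the 25 called genes with the opposite sign in controls (difference adjusted p = 0.668). Slc16a3, which shares 306 exon bases with Csnk1d, rose from 5.97 and 5.32 to 16.5 and 17.7 TPM (1.45 ± 0.23), with a change of 0.23 in controls.

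**Figure D5:**
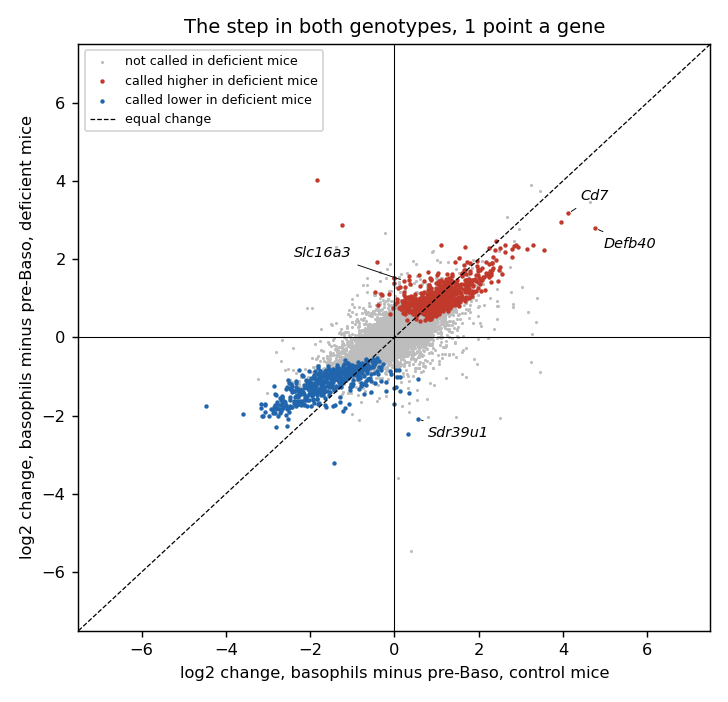
Log2 change from pre-Baso to basophils in control (x axis) and deficient mice (y axis) for each of 12511 genes, red where called higher and blue where called lower in deficient mice; the dashed line marks equal change. Called genes lie almost all in the quadrants of equal sign (1338 of 1363), and Sdr39u1 lies below 0 in deficient mice and above 0 in controls.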

How the data were processed

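Per the labels' protocols, total RNA was made into libraries with a SMARTER mRNA kit. The submitters' processing notes name HISAT2 (version not given in the sources used here) and mm10. StringTie 2.1.4 estimated transcript levels against Ensembl release 101, with no strand option, per the file headers. The deposited transcript tables give coverage, FPKM and TPM (other normalized values; no read counts, so depth is known only as coverage times length). The TPM deposited by the authors were summed per gene. Names came from the tables (45578 genes) or a reference table (9814).

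Genes at or above 1 TPM in 2 or more of 8 libraries were tested on log2(TPM + 1) with limma 3.58.1 (trend) in R 4.3.3, 1 mean per group over all 8 libraries and 4 residual degrees of freedom, with Benjamini-Hochberg adjustment. Errors are standard errors (SE). The fit was checked on simulated data.

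The members and the 35 gene lists were chosen with earlier results of these data known. Named genes were the 12 highest and 12 lowest changes (called, no overlap, 5 TPM or more on average in the higher population, no systematic names), up to 8 called and 4 abundant uncalled members per list, 3 abundant markers per marker list, and checks of gate and genotype. Counts of calls by list also name other called members, by the list alone, and the printed promoters follow their own rule. Of the genes this selects, 2 are not reported here. Alternatives were pseudocounts, filters, scalings, a replicate block, no trend, the 4 deficient libraries alone, and leaving out each library.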

Additional observations from a re-analysis of the deposited data

How the results depend on the processing

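Counts of called genes moved with the settings. Of the step in deficient mice, 298 genes (195 higher, 103 lower) were called without a filter beyond a TPM above 0, among 32088 tested, and 562 (333 and 229) with the 4 deficient libraries alone. Centring on the median gene gave 1019 lower genes against 514. Leaving out 1 library in turn gave 19 to 1237 genes, 19 to 732 higher and 0 to 505 lower; the lowest values came without the first deficient pre-Baso library, and the cause was not tested. The G2 and M median was -1.72 and -0.71 with pseudocounts of 0.1 and 5, and the S phase median -0.46 with 5, a shift set by how a pseudocount compresses low values. The difference between genotypes had 2 calls with a pseudocount of 0.1, 2 with protein-coding genes only and 0 to 2 with 1 library left out. The alternatives reversed 0 of the called named genes. With replicate number within genotype as a block, 769 genes were called (461 higher, 308 lower), 719 of them shared with the fit without it, and 0 differed between genotypes. Same-numbered deviations correlated at 0.05 in controls and 0.01 in deficient mice, so the numbers were not taken as pairing. With 2 libraries a group no exact permutation p can go below 0.333.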
